A study of Rattus norvegicus with 6 samples.

Results

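Genes of the serotonin and adrenergic receptors, the targets of descending pain control, were examined in spinal cord RNA-seq with 3 libraries of SNI-NP rats and 3 libraries of sham rats. Of 9 receptor symbols, *Htr1b*, *Htr2a*, *Htr2c*, *Htr3a*, *Htr7*, *Adra1b*, *Adra2a*, *Adra2c* and *Adrb1*, 8 had a row among the 22050 genes of the deposited table, chosen by an exact match of the symbol. *Htr7* had no row under that symbol. A row named *LOC103694905* (ENSRNOG00000018827), which the table describes as the type 7 serotonin receptor, lies outside the symbol match and its values are given apart. The SNI-NP rats were young adult male Sprague-Dawley rats with a spared nerve injury, a surgery that injures branches of the sciatic nerve and leaves the sural branch intact, and the sham rats were of the same strain, sex and age range with sham surgery. No other treatment is given for these 6 libraries. The spinal segments sequenced and the time after surgery were not given in the sources used here, and neither was the side of the cord. Each library was counted as 1 replicate, and since nothing in the labels ties a library to its own rat, p-values measure the spread between these libraries, which may be technical.

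Serotonin reaches the spinal cord from the raphe nuclei of the brainstem, and noradrenaline reaches it from the locus coeruleus and neighbouring cell groups. Both are released in the dorsal horn, where they can dampen or strengthen the passage of pain signals according to the receptor they meet. Receptors coupled to Gi lower cyclic AMP and open potassium channels, receptors coupled to Gq act through phospholipase C and calcium, receptors coupled to Gs raise cyclic AMP, and the type 3 serotonin receptor is itself a cation channel. These receptors sit on the endings of primary sensory neurons, on neurons and glia of the cord, and on blood vessels.

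The total estimated counts ranged from 16670760 to 18151156 per library, and a count of 0 would allow up to 0.165 to 0.18 CPM by library size alone, a limit that covers counting error only. CPM is a count as a share of its library total, and all levels given in CPM were scaled with TMM factors. Genes that define spinal tissue were present, among them *Slc6a5* of glycinergic neurons at 65.6 to 227 CPM and *Gfap* of astrocytes at 332 to 863 CPM. Genes that define peripheral nerve were present too. *Pmp22* and *Prx*, which encode proteins of Schwann cell myelin, had at least 13852 and 4032 CPM in every library, beside *Mbp* of central and peripheral myelin at 25760 to 34303 CPM. All 8 markers of dorsal root ganglion neurons had counts in every library, and their summed level was 408, 802 and 937 CPM in sham replicates 1, 2 and 3 and 89.1, 1266 and 917 CPM in SNI-NP replicates 1, 2 and 3. SNI-NP replicate 1 therefore stood apart from the other libraries, with a 14.2-fold span between the lowest and the highest library. The summed level of 5 markers of inhibitory neurons was 416, 133 and 290 CPM in sham rats and 248, 161 and 157 CPM in SNI-NP rats. Of 5 markers of the raphe and locus coeruleus neurons themselves, 3 had counts in every library, *Tph2* at 1.44 to 4.5 CPM, *Slc6a2* at 1.44 to 5.76 CPM and *Dbh* at 0.407 to 1.24 CPM, while *Fev* and *Slc6a4* had a count of 0 in at least 1 library.

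Expression was compared per transcript length in FPKM (reads scaled by transcript length and library total, as deposited), since the transcript lengths behind these values ran from 1395 bases for *Adrb1* to 4604 bases for *Htr2a*. *Htr3a*, the obligatory subunit of the type 3 channel, had the highest mean over the 6 libraries at 14.8 FPKM, with a range of 1.57 to 24.5. *Htr2c*, a Gq-coupled receptor, followed at a mean of 7.15 FPKM (range 4.01 to 13.2). The alpha-2 adrenergic receptor genes *Adra2a* and *Adra2c*, which encode the targets of clonidine-like drugs, came next at means of 5.04 and 4.64 FPKM. These 4 genes formed the upper part of the order, although *Htr3a* lay above *Htr2c* in only 4 of 6 libraries and *Adra2a* above *Adra2c* in only 2 of 6. In SNI-NP replicate 1, which had the lowest dorsal root ganglion marker sum, *Htr3a* was at 1.57 FPKM. There it lay below *Htr2c* at 7.85, *Adra2a* at 6.16 and *Adra2c* at 3.65 FPKM. The part of sensory neuron content in this order was not tested. *LOC103694905* had a mean of 2.61 FPKM, *Adra1b* of 2.04 and *Htr1b* of 1.85. *Adrb1* had a mean of 0.855 FPKM, and *Htr2a* had the lowest mean at 0.468. *Adra2c* and *LOC103694905* were the neighbours in this order whose ranges did not overlap, and the ranges of *Htr1b* and *Adrb1* touched at 1.11 FPKM. Every other pair of neighbours overlapped.

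**Figure D1:**
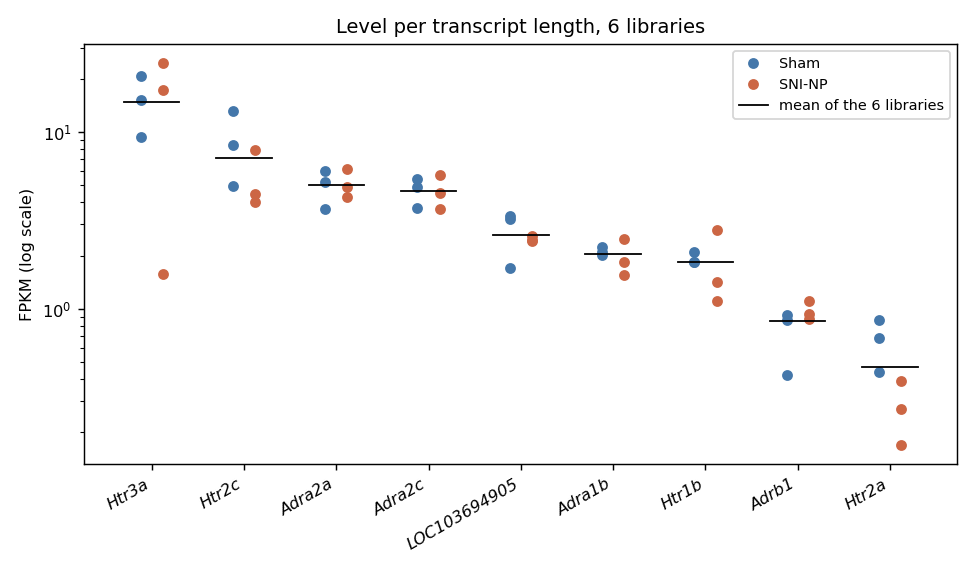
Level per transcript length in FPKM (vertical axis, log scale) of the 8 receptor genes and *LOC103694905*, ordered by their mean over 6 libraries. Each point is 1 library of sham or SNI-NP rats and each bar is the mean, which runs from 14.8 for *Htr3a* to 0.468 for *Htr2a*, and 1 SNI-NP library of *Htr3a* lies at 1.57.

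Between the groups, 0 of the 8 receptor genes had an adjusted p under 0.05 (edgeR quasi-likelihood test, Benjamini-Hochberg method), beside 0 of 14426 genes tested (0% called). DESeq2 also called 0 of the 8, beside 1.1% of the 17452 genes it tested, and gave 1 of the 8 an unadjusted p under 0.05, beside 9.8% of its genes. At an unadjusted p under 0.05, edgeR found 1 of the 8, *Htr2a*, lower in SNI-NP rats, where 10.8% of all genes tested passed, 5.94% with lower values and 4.91% with higher values. The groups did not overlap in 1 of the 8 genes, again *Htr2a*, beside 18.5% of all genes tested (8.15% lower and 10.4% higher). These counts lie near those of all genes. The median log2 fold change of the 8 genes was -0.06, with 5 negative and 3 positive values, and that of all genes tested was 0.01. With 3 libraries in each group, 0.1 is the smallest two-sided p of an exact permutation test.

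**Figure D2:**
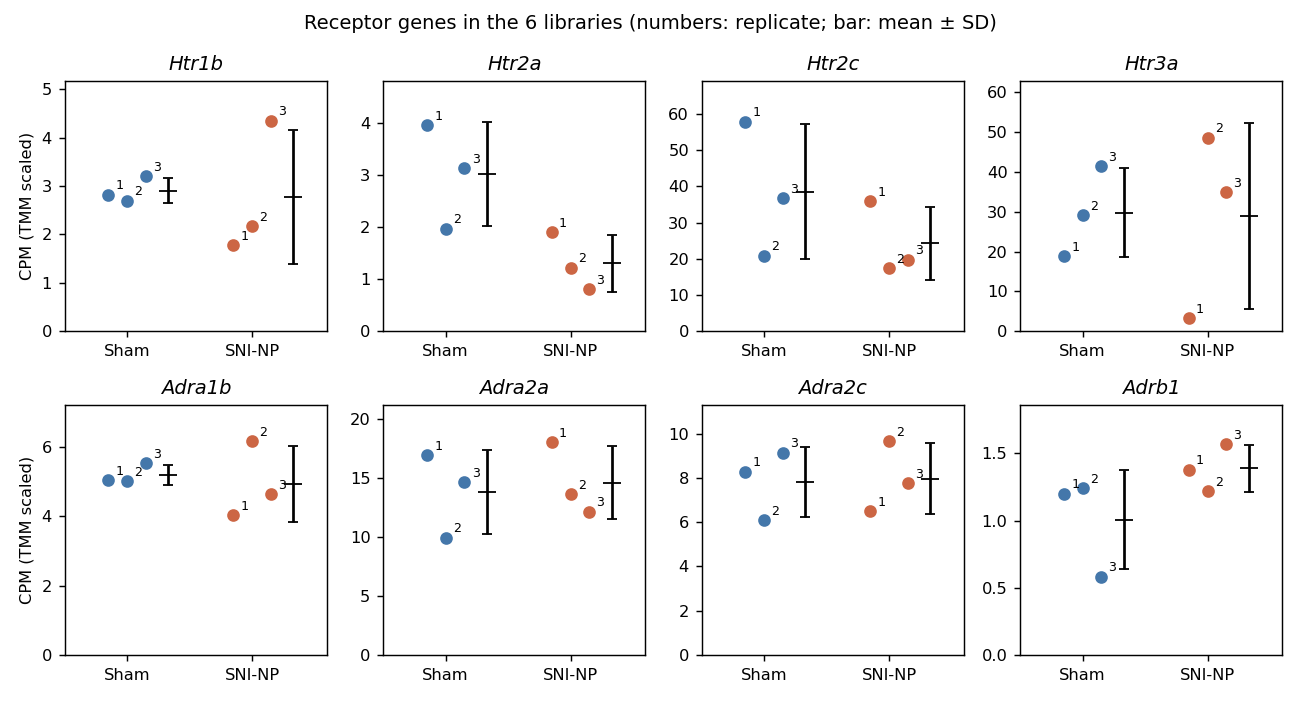
TMM-scaled CPM (vertical axes, each from 0) of the 8 receptor genes in 3 sham and 3 SNI-NP libraries, numbered by replicate, with the mean ± SD of each group as a bar. *Htr2a* is the gene whose groups do not overlap, at 1.97 to 3.96 CPM in sham rats and 0.812 to 1.90 CPM in SNI-NP rats, and *Htr3a* shows the low value of 3.28 CPM in SNI-NP replicate 1.

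Among the Gq-coupled receptors, *Htr2a* encodes the type 2A serotonin receptor, the target of classical hallucinogens and of several antipsychotic drugs. Its level was 3.96, 1.97 and 3.14 CPM in sham replicates 1, 2 and 3 (66, 35 and 54 estimated counts). In SNI-NP replicates 1, 2 and 3 it was 1.90, 1.22 and 0.812 CPM (33, 22 and 14 estimated counts). Every SNI-NP library lay below every sham library, although SNI-NP replicate 1 and sham replicate 2 differed by only 2 counts. The log2 fold change was -1.20 with a standard error (SE) of 0.42 and a 95% interval of -2.18 to -0.23 (edgeR, unadjusted p = 0.0223, adjusted p = 0.436), so the difference did not pass correction over all genes. Leaving out 1 library at a time gave log2 fold changes between -1.56 and -0.98, with an unadjusted edgeR p under 0.05 in 3 of 6 fits. The edgeR p was 0.0757 without sham replicate 1 (adjusted p = 0.777), 0.0572 when SNI-NP replicate 2 was left out (adjusted p = 0.533) and 0.0558 when SNI-NP replicate 3 was (adjusted p = 0.755). The sum of the 5 inhibitory neuron markers was highest in sham replicate 1, as *Htr2a* was. It was lowest in sham replicate 2, where *Htr2a* had the lowest of its sham values. The sums of general and of excitatory neuron markers were highest in sham replicate 3. Divided by the inhibitory sum, *Htr2a* stood at 0.952, 1.48 and 1.08 CPM per 100 CPM of markers in sham rats and 0.765, 0.759 and 0.518 in SNI-NP rats. The groups did not overlap, and the share of all genes whose ratio to this sum separates is not given here. Per 100 CPM of the dorsal root ganglion marker sum the groups overlapped, at 0.246 to 0.97 CPM in sham rats and 0.0885 to 2.13 CPM in SNI-NP rats. A covariate fit used the mean log2 CPM of the inhibitory markers, which weighs each marker equally, in place of the inhibitory sum. There the log2 fold change was -0.84 (edgeR, unadjusted p = 0.0418, adjusted p = 0.527). In that fit 9.34% of all genes had an unadjusted p under 0.05. In bulk tissue, fewer cells of a type and less RNA per cell cannot be told apart.

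*Htr2c* encodes the type 2C serotonin receptor, a Gq-coupled receptor found on spinal neurons. It was found at 57.9, 20.8 and 36.8 CPM in sham rats and 35.9, 17.4 and 19.7 CPM in SNI-NP rats. The groups overlapped, and each group held 1 library, replicate 1, that lay above the other two. The log2 fold change was -0.66 (SE 0.41, 95% interval -1.61 to 0.29, edgeR adjusted p = 0.558). This value depended on single libraries. It was -0.26 without sham replicate 1, -0.97 without sham replicate 2 (edgeR, unadjusted p = 0.0293, adjusted p = 0.299) and -1.05 without SNI-NP replicate 1 (edgeR, unadjusted p = 0.0308, adjusted p = 0.304, where 13.1% of all genes had an unadjusted p under 0.05). The inhibitory marker sum ran beside *Htr2c* across the libraries, and 2 other sums had a broadly similar pattern. Astrocyte markers summed to 1829, 749 and 1343 CPM in sham rats and 1267, 928 and 896 CPM in SNI-NP rats. Motor neuron markers summed to 70.3, 25.1 and 58.2 CPM in sham rats and 34.9, 31.1 and 28.1 CPM in SNI-NP rats. Neither was tested as a covariate. Per 100 CPM of the inhibitory sum, *Htr2c* stood at 13.9, 15.6 and 12.7 CPM in sham rats. In SNI-NP rats it stood at 14.5, 10.8 and 12.5 CPM. The ratio spanned 1.44-fold over the 6 libraries, where the gene alone spanned 3.32-fold. With the mean log2 CPM of the inhibitory markers as a covariate the log2 fold change was -0.15 (SE 0.14, edgeR adjusted p = 0.716). With the mean log2 CPM of the dorsal root ganglion markers as a covariate it was -0.87 (edgeR, unadjusted p = 0.0171, adjusted p = 0.2). In that fit 15.5% of all genes had an unadjusted p under 0.05. The choice of these markers for *Htr2a* and *Htr2c* was made after their values were seen.

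*Adra1b* encodes the alpha-1B adrenergic receptor, the third Gq-coupled gene of the set. It was at 5.04, 5.01 and 5.53 CPM in sham rats and 4.03, 6.16 and 4.64 CPM in SNI-NP rats. The sham libraries lay inside the range of the SNI-NP libraries, and the log2 fold change was -0.07 (SE 0.22, 95% interval -0.59 to 0.45). Summed over the 3 Gq-coupled genes, the level was 46.8 ± 19.6 CPM (SD, n = 3) in the sham group and 30.6 ± 9.73 CPM (SD, n = 3) in the SNI-NP group, most of it from *Htr2c*.

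*Htr3a* varied most between libraries of the 8 genes. It stood at 18.9, 29.1 and 41.4 CPM in sham rats (314, 516 and 711 estimated counts) and 3.28, 48.6 and 34.9 CPM in SNI-NP rats (57, 875 and 602 estimated counts). The lowest and the highest of the 6 values were both SNI-NP libraries, and they were 14.8-fold apart. The log2 fold change was -0.04 with an SE of 0.76, and the 95% interval of -1.83 to 1.75 corresponds to a fold change of 0.281 to 3.36 (edgeR adjusted p = 0.988). Without SNI-NP replicate 1 the log2 fold change was 0.49 (SE 0.31, edgeR adjusted p = 0.584). *Htr3b*, which encodes the partner subunit of the channel and is not among the 8 genes, showed the same order of libraries at 7.44, 14.9 and 21.2 CPM in sham rats and 0.978, 24.7 and 16.3 CPM in SNI-NP rats. The count of *Htr3a* was 1.95 to 3.35 times that of *Htr3b* in the 6 libraries. Both genes ran beside the dorsal root ganglion neuron markers. Per 100 CPM of the marker sum, *Htr3a* stood at 4.62, 3.62 and 4.42 CPM in sham rats and 3.68, 3.84 and 3.81 CPM in SNI-NP rats, a span of 1.27-fold. With the mean log2 CPM of these markers as a covariate the log2 fold change of *Htr3a* was -0.14 and its SE was 0.14 (edgeR adjusted p = 0.671). This ratio was also chosen after the values were seen.

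**Figure D3:**
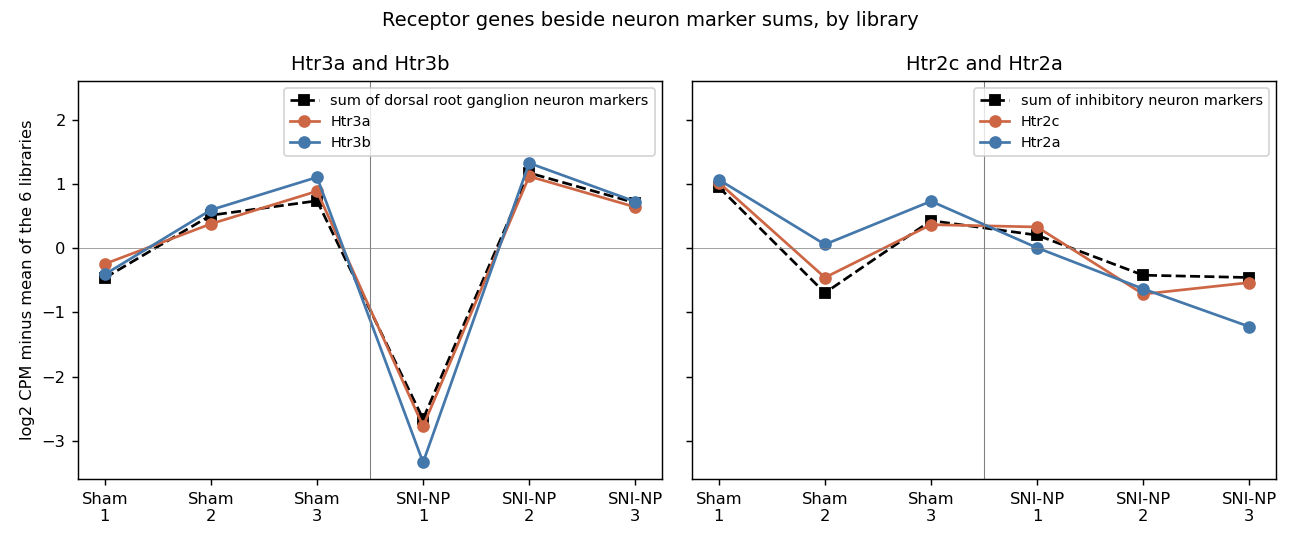
Log2 CPM minus the mean of the 6 libraries (vertical axes) for *Htr3a* and *Htr3b* beside the summed dorsal root ganglion neuron markers (left), and for *Htr2c* and *Htr2a* beside the summed inhibitory neuron markers (right), in each sham and SNI-NP library; lines join libraries for reading and carry no order. On the left all curves dip in SNI-NP replicate 1, and on the right *Htr2c* lies near the marker sum in every library while *Htr2a* lies above it in the sham libraries and below it in the SNI-NP libraries.

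The promoters of the genes in these 2 patterns are shown where RefSeq gave an entry, since *Htr2c* and *Htr3b* ran beside different marker sums. Entries were found for 6 of the 8 receptor genes, not for *Htr2a* and *Htr3a*. The 250 bases before the gene start are given 5′ to 3′ on the strand of the gene, from RefSeq on the GRCr8 assembly, with capitals marking the searched motif.
*Htr2c* (chrX:115452940-115453189, plus strand): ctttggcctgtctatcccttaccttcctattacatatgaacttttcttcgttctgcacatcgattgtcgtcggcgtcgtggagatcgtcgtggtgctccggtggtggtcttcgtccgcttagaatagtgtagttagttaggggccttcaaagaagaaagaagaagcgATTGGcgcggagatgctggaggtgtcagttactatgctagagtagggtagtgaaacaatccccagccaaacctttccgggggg
*Htr3b* (chr8:58204940-58205189, minus strand): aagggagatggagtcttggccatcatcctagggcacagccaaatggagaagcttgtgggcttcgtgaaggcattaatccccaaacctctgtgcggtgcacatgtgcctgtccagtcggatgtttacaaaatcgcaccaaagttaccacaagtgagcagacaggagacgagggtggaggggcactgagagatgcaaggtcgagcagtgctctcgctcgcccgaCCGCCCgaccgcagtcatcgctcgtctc
The capitals mark a CCAAT box read on the opposite strand in *Htr2c* and an Sp1 box read on the opposite strand in *Htr3b*. Each motif was searched on both strands, and each printed window held 1 match. The CCAAT box occurred in 34% of 33469 promoter windows of this length and in 3 of the 6 receptor promoters. The Sp1 box, GGGCGG, occurred in 30.5% of the windows and in 1 of the 6 receptor promoters, that of *Adra2c*. *Htr3b* is not among those 6. The TATA box, TATAAA, was in 12.9% of all windows and the E-box, CACGTG, was in 5.59%. The cAMP response element, TGACGTCA, was in 1.59% of all windows, and none of these last motifs was in a receptor window. The GC content was 50.4% for *Htr2c* and 56.8% for *Htr3b*, beside a median of 51.2% over all windows. Among the receptor windows not printed it was 52.4% for *Htr1b*, 67.6% for *Adra2a*, 70.8% for *Adra1b*, 72% for *Adrb1* and 80.4% for *Adra2c*.

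The Gi-coupled receptor genes spanned 1.59-fold to 2.44-fold between the lowest and the highest library. *Htr1b* encodes the type 1B serotonin receptor, which acts at nerve endings and is a target of triptans. It was at 2.82, 2.70 and 3.20 CPM in sham rats and 1.78, 2.17 and 4.35 CPM in SNI-NP rats. SNI-NP rats held both the lowest and the highest value, and the log2 fold change was -0.07 (SE 0.37, 95% interval -0.94 to 0.79). *Adra2a* encodes the alpha-2A receptor, through which noradrenaline inhibits transmitter release from sensory endings. Its level was 16.9, 9.91 and 14.6 CPM in sham rats and 18.0, 13.6 and 12.1 CPM in SNI-NP rats, a log2 fold change of 0.08 (SE 0.24, 95% interval -0.48 to 0.64). *Adra2c* encodes the related alpha-2C receptor. Its libraries were at 8.28, 6.08 and 9.14 CPM in sham rats and 6.50, 9.66 and 7.77 CPM in SNI-NP rats, a log2 fold change of 0.03 (SE 0.23, 95% interval -0.52 to 0.57). The groups overlapped in each of these 3 genes, and the intervals of the fold change ran from 0.715 to 1.56 for *Adra2a* and from 0.7 to 1.48 for *Adra2c*. Their summed level was 24.5 ± 5.07 CPM (SD, n = 3) in the sham group and 25.3 ± 1.06 CPM (SD, n = 3) in the SNI-NP group.

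*Adrb1* encodes the beta-1 receptor, a Gs-coupled receptor best known from the heart. It had 20, 22 and 10 estimated counts in sham rats and 24, 22 and 27 in SNI-NP rats, or 1.20, 1.24 and 0.582 CPM and 1.38, 1.22 and 1.57 CPM. Only sham replicate 3 lay apart from the others, and the log2 fold change was 0.46 (SE 0.39, 95% interval -0.46 to 1.38, edgeR adjusted p = 0.668). *LOC103694905*, described as the Gs-coupled type 7 receptor, was at 9.73, 5.01 and 10 CPM in sham rats and 7.65, 7.66 and 7.48 CPM in SNI-NP rats. The 3 SNI-NP libraries lay between the sham libraries, and the log2 fold change was -0.12 (SE 0.27, edgeR adjusted p = 0.893).

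Of 13 further serotonin and adrenergic receptor genes analysed here, 8 passed the filter on low counts. None had an adjusted edgeR p under 0.05, 1 had an unadjusted p under 0.05, beside 10.8% of all genes tested, and the median log2 fold change of the 8 was -0.26. *Adra1a* encodes the alpha-1A receptor. It was at 2.40, 1.30 and 1.98 CPM in sham rats and 0.920, 0.889 and 1.04 CPM in SNI-NP rats, a log2 fold change of -0.99 (SE 0.35, edgeR unadjusted p = 0.0248, adjusted p = 0.436). Every SNI-NP library lay below every sham library. When 1 library was left out, the log2 fold change ran from -1.20 to -0.79 and the unadjusted edgeR p was under 0.05 in 2 of 6 fits, those without sham replicate 2 or with SNI-NP replicate 3 left out. Per 100 CPM of the inhibitory marker sum the groups overlapped, at 0.577 to 0.971 CPM in sham rats and 0.371 to 0.666 CPM in SNI-NP rats. With the mean log2 CPM of those markers as a covariate the log2 fold change was -0.74 (edgeR, unadjusted p = 0.0841, adjusted p = 0.554). The count of *Adra1b* was 2.1, 3.87 and 2.79 times that of *Adra1a* in sham rats and 4.38, 6.94 and 4.44 times in SNI-NP rats. These ratios did not overlap between the groups. The count ratios of *Htr3a* to *Htr3b*, *Htr2c* to *Htr2a* and *Adra2a* to *Adra2c* did overlap. The pair of *Adra1b* and *Adra1a* was chosen after its values were seen, and the share of all gene pairs that separate is not given here.

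**Figure D4:**
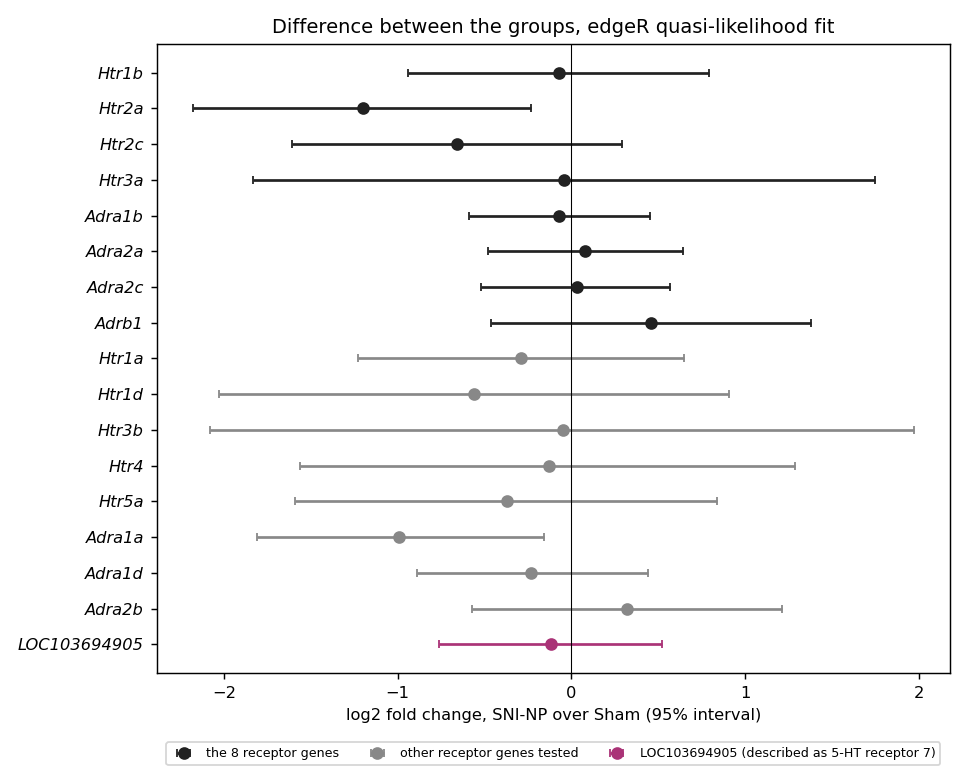
Log2 fold change of SNI-NP over sham rats (horizontal axis) with its 95% interval from the edgeR quasi-likelihood fit, for the 8 receptor genes, 8 other receptor genes and *LOC103694905*. The intervals of *Htr2a* and *Adra1a* lie below 0 before correction over all genes, while those of *Htr3a* and *Htr3b* are the widest.

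The genes around these receptors were counted in lists. No list had a gene with an adjusted edgeR p under 0.05, beside 0 of 14426 genes tested, and the median log2 fold change of all genes was 0.01. The counts at an unadjusted p under 0.05 in these lists stand beside 10.8% of all genes, 5.94% with lower and 4.91% with higher values. Of 15 genes of monoamine synthesis, transport and breakdown, 9 passed the filter and 0 had an unadjusted p under 0.05 (median log2 fold change -0.05). *Slc18a2*, the vesicular monoamine transporter gene, had a log2 fold change of -0.43 (SE 0.28), and *Tph2*, the neuronal enzyme of serotonin synthesis, of 0.61 (SE 0.44). *Drd2*, the only dopamine receptor gene of 5 that passed the filter, was at 0.12 (SE 0.36).

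Downstream of the Gq-coupled receptors, 2 of 4 phospholipase C beta genes had an unadjusted p under 0.05, both lower in SNI-NP rats (median of the 4 genes -0.34), where 5.94% of all genes were. *Plcb4* was at 21.1 to 30.5 CPM in sham rats and 7.94 to 19.0 CPM in SNI-NP rats (log2 fold change -0.95, SE 0.31, edgeR unadjusted p = 0.0182, adjusted p = 0.436). *Plcb1* was at 24.1 to 33.3 CPM and 8.16 to 22.9 CPM (log2 fold change -0.93, SE 0.34, edgeR unadjusted p = 0.0278, adjusted p = 0.436). With the dorsal root ganglion marker covariate, the log2 fold changes were -1.17 and -1.18, with adjusted edgeR p-values of 0.032 and 0.0433. In that fit 1.54% of all genes passed the adjusted threshold. With the inhibitory neuron marker covariate, the log2 fold changes were -0.78 and -0.73, with adjusted edgeR p-values of 0.527 and 0.531. Without sham replicate 1 neither gene had an unadjusted p under 0.05 (*Plcb4* 0.0529 and *Plcb1* 0.0661, edgeR adjusted p = 0.777 for both), and *Plcb1* also missed it without sham replicate 3 (0.0526) or with SNI-NP replicate 3 left out (0.0615). *Gnaq*, the alpha subunit gene that gives Gq its name, was at 25.0 to 30.7 CPM in sham rats and 15 to 19.8 CPM in SNI-NP rats (log2 fold change -0.60, SE 0.15, edgeR unadjusted p = 0.00519, adjusted p = 0.348). The groups did not overlap in any of these 3 genes, nor in 18.5% of all genes tested. Of the 11 rows of G protein alpha subunits, in which *Gnas* has 2, the other with an unadjusted p under 0.05 was *Gnai2* at 398 to 438 CPM in sham rats and 473 to 508 CPM in SNI-NP rats (log2 fold change 0.23, SE 0.10, edgeR unadjusted p = 0.0447, adjusted p = 0.453). Its unadjusted p was over 0.05 in all 6 fits that left out a library, between 0.0542 and 0.164 (edgeR). It was also over 0.05 with library totals only, with no filter, and with either marker covariate. The median of these rows was -0.15.

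Downstream of the Gi-coupled and Gs-coupled receptors, 0 of 4 potassium channel genes of the GIRK family and 0 of 9 adenylyl cyclase genes had an unadjusted edgeR p under 0.05, with median log2 fold changes of -0.08 and -0.06. The neuronal GIRK subunit genes *Kcnj3* and *Kcnj9* were at -0.60 (SE 0.35) and -0.13 (SE 0.24), and the cyclase genes *Adcy9* and *Adcy1* at -0.35 (SE 0.19) and 0.19 (SE 0.20). Of 7 receptor kinase and arrestin genes, *Grk6* was the 1 with an unadjusted p under 0.05, at 45.6 to 46.7 CPM in sham rats and 52.9 to 57.7 CPM in SNI-NP rats (log2 fold change 0.28, SE 0.09, edgeR unadjusted p = 0.0179, adjusted p = 0.436), while the median of the list was -0.10. Its unadjusted edgeR p was 0.0741 without sham replicate 1 (adjusted p = 0.777), 0.07 without sham replicate 3 (adjusted p = 0.688) and 0.104 when SNI-NP replicate 3 was left out (adjusted p = 0.755). Of 11 RGS genes, whose proteins speed the shut-off of G proteins (median -0.26), *Rgs17* was the 1 that passed without correction, at 7.38 to 9.55 CPM in sham rats and 1.67 to 5.46 CPM in SNI-NP rats (log2 fold change -1.37, SE 0.42, edgeR unadjusted p = 0.0124, adjusted p = 0.415). Without SNI-NP replicate 1 its log2 fold change was -2.01 (edgeR adjusted p = 0.0243, beside 1.52% of all genes past that threshold). With the dorsal root ganglion marker covariate it was -1.75 (edgeR adjusted p = 0.0271, beside 1.54% of all genes). In the other fits that left out a library the adjusted edgeR p of *Rgs17* ran from 0.277 to 0.777. With the inhibitory neuron marker covariate its log2 fold change was -1.19 (edgeR adjusted p = 0.508).

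The genes most like each receptor across the 6 libraries were found by the root mean square difference of centred log2 CPM over 12331 genes. *Htr3a* was closest to *Avil* (advillin, 0.085), itself 1 of the 8 dorsal root ganglion markers, and to *Myo1a* (0.11). *Htr2c* was closest to *Aqp4* (0.1), the water channel gene of astrocytes and 1 of the 6 astrocyte markers, and to *Fstl5* (0.1). The summed astrocyte markers ran from 749 to 1829 CPM, and their part in the values of *Htr2c* was not tested. *Htr2a* was closest to *Galr1* (0.14), a galanin receptor gene, and *Caln1* (0.15). The remaining genes had the nearest patterns in *Ccl4* (0.12) and *AC115666.1* (0.15) for *Htr1b*, in *Nipsnap1* (0.033) and *Stk24* (0.037) for *Adra1b*, and in *Cpne5* (0.066) and *Tspy26* (0.07) for *Adra2a*. For *Adra2c* they were *Dctn1* (0.032) and *Rassf5* (0.044), and for *Adrb1* they were *Cd244* (0.11) and *Mr1* (0.13). These are differences over 6 points that share libraries and depth, and the smallest belong to genes that varied least. In the annotation deposited with the table, 7 of the 8 genes carried the term for G protein-coupled receptor activity, which *Htr3a* did not, and 3 of the 8 carried regulation of vasoconstriction, a term held by 16 genes of the table.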

How the data were processed

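RNA was extracted with TRIzol from spinal cord tissue of sham and SNI-NP rats, and 3 libraries per group were made with a NEBNext Ultra kit for Illumina. The authors mapped reads to a genome they call Rat6 and kept unique sequences; the submitters' processing notes name FastQC, STAR and HTSeq, and versions, annotation and strand setting were not given in the sources used here. The deposited file holds estimated counts without normalization, of which 11.5% of the 17508 genes with a count had a value that was not whole (tolerance 0.005), and FPKM values made by the authors from the count, the length of the gene and the library total. None of the receptor genes had such a value. The values are for genes, and no other column of values per sample was left unused.

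Estimated counts were rounded and analysed in R version 4.3.3 with edgeR version 4.0.16 (filterByExpr, TMM, quasi-likelihood test with the group as the single term, Benjamini-Hochberg adjustment over 14426 genes, threshold 0.05). The common biological coefficient of variation was 0.223. FPKM was used to rank genes per length. On simulated counts for this comparison with 14426 genes, edgeR recovered 88.5% of 200 genes changed by 2 on the log2 scale. The largest log2 fold change among the receptor genes was -1.20, for *Htr2a*. The share recovered does not tell how often changes of that size or smaller would be found. Alternatives were DESeq2 version 1.42.0 on the same deposited counts, RLE, upper-quartile and library-total scaling, no filter, and a minimum of 10 counts. Others were the replicate block, loess offsets on length (span 0.5), and leaving out each library. The ratio of mean FPKM gave a fold change only and kept the p-values of the main fit. Another alternative had a covariate, the mean log2 CPM (prior count 2) of the dorsal root ganglion markers, each with equal weight. The same mean over the inhibitory neuron markers was added as a covariate after seeing the data. The receptor genes, the pathway and marker lists and the rules for naming genes were chosen with earlier results of these data known. Named pathway genes were, in each list, those with an unadjusted p under 0.05 (at most 4), or otherwise the 2 with the smallest p. Likeness used tested genes with a mean of at least 1 CPM and whole counts in every library (same tolerance). Its values were log2 of the scaled CPM after a small constant was added. Promoters came from RefSeq tables of GRCr8, a build other than that of the counts. Some genes of these lists are not reported here.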

Additional observations from a re-analysis of the deposited data

How the results depend on the processing

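The count of 0 receptor genes with an adjusted p under 0.05 held in every alternative. The ratio of mean FPKM kept the p-values of the comparison as reported, so it was no separate test of these counts. The count with an unadjusted p under 0.05, 1 in the comparison as reported, was 2 with the replicate block, with length offsets and the block, and with the dorsal root ganglion covariate (*Htr2c* joining *Htr2a* in each), and ran from 0 to 2 when 1 library was left out: leaving out sham replicate 1, SNI-NP replicate 2 or SNI-NP replicate 3 gave 0, and leaving out sham replicate 2 or SNI-NP replicate 1 gave 2. Of all genes, 15.5% had an unadjusted edgeR p under 0.05 with the dorsal root ganglion covariate and 13.1% without SNI-NP replicate 1. Shares of all genes in the block fits and the other fits that left out a library are not given here. The count whose groups did not overlap ran from 1 to 3 in the fits that left out a library. Groups with fewer libraries separate more easily, and the share of all genes is not given for those fits. With the block, *Htr2c* had a log2 fold change of -0.62 (edgeR, unadjusted p = 0.0104, adjusted p = 0.454). Same-numbered sham and SNI-NP libraries had correlations of deviations of 0.214, -0.143 and 0.0538. Pairs with unlike numbers ran from -0.244 to 0.222. With so few libraries, these values cannot decide whether the numbers pair the libraries.

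Over 30 named genes and 18 alternatives, 4 of 537 values passed the adjusted threshold, all for *Plcb4*, *Plcb1* or *Rgs17*. Of the 537 log2 fold changes, 509 kept their direction and 28 did not, and the cause was not tested. Outside the fits that leave out a library these were *Adra2a* at -0.01 with the dorsal root ganglion covariate, *Adra2c* at -0.01 with library totals only and as a ratio of mean FPKM, *Htr5a* at 0.21, *LOC103694905* at 0.18 and *Kcnj9* at 0.08 with the inhibitory neuron covariate, and *LOC103694905* at 0.00 with length offsets and the block. Leaving out 1 library gave ranges of -0.59 to 0.16 for *Htr1b*, -0.64 to 0.49 for *Htr3a*, -0.26 to 0.06 for *Adra1b*, -0.11 to 0.23 for *Adra2a*, -0.13 to 0.15 for *Adra2c*, -0.74 to 0.50 for *Htr3b*, -0.47 to 0.32 for *Htr4*, -0.71 to 0.08 for *Htr5a*, -0.39 to 0.02 for *Adra1d*, -0.37 to 0.02 for *LOC103694905*, -0.17 to 0.33 for *Drd2*, -0.28 to 0.09 for *Kcnj9* and -0.03 to 0.30 for *Adcy1*. With the block, *Adra1a*, *Gnai2* and *Grk6* had unadjusted edgeR p-values over 0.05 (0.0505, 0.112 and 0.0549, adjusted p = 0.538, 0.6 and 0.538). Depth limits the genes with few counts, such as *Adrb1* with 10 to 27 and *Htr1a* with 8 to 14 per library.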

Other observations

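Further receptor genes passed the filter at low levels. *Htr1d*, which encodes a Gi-coupled receptor of sensory neurons and a target of triptans, was at 1.02, 1.80 and 2.27 CPM in sham rats and 0.288, 1.94 and 1.22 CPM in SNI-NP rats. *Htr4*, which encodes a Gs-coupled serotonin receptor, was at 1.32, 0.789 and 1.57 CPM in sham rats and 0.288, 1.5 and 1.57 CPM in SNI-NP rats. Both had their lowest value in SNI-NP replicate 1, the library with the lowest dorsal root ganglion marker sum. *Htr5a* was at 2.04, 0.620 and 1.28 CPM in sham rats and 1.21, 0.611 and 1.22 CPM in SNI-NP rats, and *Adra1d* at 6.06, 3.49 and 4.13 CPM in sham rats and 3.05, 4.17 and 4.46 CPM in SNI-NP rats. The groups overlapped in each of these 4 genes. *Htr1a* ranged from 0.46 to 0.815 CPM and *Adra2b* from 0.72 to 1.39 CPM over the 6 libraries. *Htr1f*, *Htr2b*, *Htr5b*, *Htr6* and *Adrb3* did not pass the filter, and the highest value among them was 0.833 CPM, for *Htr5b*.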
